A study of Mus musculus with 12 samples.

Results

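Hic1, Dapk2 and Cpm are 3 genes that were selected on their measured RNA levels, for being high in migratory dendritic cells (DCs) of the duodenum, and they are described here across duodenum, liver and pancreas. They were found by symbol, 1 row each, among the 55401 genes of the deposited tables (ENSMUSG00000043099 for Hic1, ENSMUSG00000032380 for Dapk2 and ENSMUSG00000020183 for Cpm), and all 3 passed the filter on low counts. Bulk RNA was sequenced from DCs sorted out of the duodenum, the liver and the pancreas of B6 mice aged 6 to 8 weeks, with 4 libraries per tissue and 2 mice pooled into each library. No genotype or treatment separated the groups. The gate took living CD45+ cells without lineage markers that carried CD11c and CD103, had high MHC class II and lacked CD11b, markers that together point to conventional type 1 DCs (cDC1). Because pools of 2 mice were sorted in bulk, fewer cells with a transcript and less transcript per cell cannot be told apart.

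Migratory DCs pick up antigen in a tissue and carry it through lymph to the draining node, and in the gut they are known for making retinoic acid, the vitamin A product that imprints gut homing on T cells. Hic1 encodes a BTB zinc finger repressor that recruits corepressors such as CtBP and, in human cells, the deacetylase SIRT1. In mice its expression in intestinal immune cells is known to depend on vitamin A, and outside the immune system it marks mesenchymal progenitors. Dapk2 encodes a serine/threonine kinase of the death-associated protein (DAP) kinase family, which is switched on by calcium-loaded calmodulin and phosphorylates myosin light chain. Cpm encodes carboxypeptidase M, a membrane enzyme held by a GPI anchor that trims arginine or lysine from the end of peptides such as kinins and anaphylatoxins.

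The promoters of the 3 genes are shown because the genes were high in the same libraries, so that their start regions can be compared letter by letter. Each window holds the 250 bases before an annotated start in RefSeq (GRCm38.p6, not the build of the deposited tables), read 5′ to 3′ on the gene's strand, and Hic1 has 2 such starts. The windows are chr11:75170256-75170505 and chr11:75168153-75168402 on the minus strand for Hic1, chr9:66157976-66158225 on the plus strand for Dapk2 and chr10:117629250-117629499 on the plus strand for Cpm. Capitals mark matches to 7 short motifs, searched on both strands.
Hic1, outer start: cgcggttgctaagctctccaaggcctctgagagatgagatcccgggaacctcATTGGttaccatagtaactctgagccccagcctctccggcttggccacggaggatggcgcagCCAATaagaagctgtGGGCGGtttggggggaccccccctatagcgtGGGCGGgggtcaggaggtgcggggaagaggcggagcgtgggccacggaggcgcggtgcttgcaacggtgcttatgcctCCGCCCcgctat
Hic1, inner start: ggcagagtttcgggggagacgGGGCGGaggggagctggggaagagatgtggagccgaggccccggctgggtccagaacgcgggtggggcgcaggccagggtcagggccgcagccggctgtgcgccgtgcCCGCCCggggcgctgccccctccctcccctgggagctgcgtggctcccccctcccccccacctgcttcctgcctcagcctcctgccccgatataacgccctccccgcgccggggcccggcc
Dapk2: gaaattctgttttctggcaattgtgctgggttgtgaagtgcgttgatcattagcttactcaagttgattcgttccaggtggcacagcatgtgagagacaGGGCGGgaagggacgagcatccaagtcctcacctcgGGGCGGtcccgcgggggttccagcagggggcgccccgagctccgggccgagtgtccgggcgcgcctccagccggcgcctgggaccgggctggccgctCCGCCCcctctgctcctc
Cpm: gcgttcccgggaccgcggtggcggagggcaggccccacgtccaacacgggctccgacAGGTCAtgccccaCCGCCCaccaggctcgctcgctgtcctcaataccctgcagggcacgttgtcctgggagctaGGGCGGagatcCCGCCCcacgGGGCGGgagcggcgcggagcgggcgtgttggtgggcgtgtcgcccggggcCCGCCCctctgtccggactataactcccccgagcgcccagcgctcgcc

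All 4 windows were rich in G and C, at 64.4% and 77.2% for the outer and inner start of Hic1, 65.2% for Dapk2 and 74.4% for Cpm, where the median of 32841 such windows was 52.4%. They held 18, 22, 20 and 30 CpG pairs in that order, against a median of 6. The GC box GGGCGG was the motif that all 4 shared, with 3 and 2 matches for Hic1, 3 for Dapk2 and 5 for Cpm, and 32.7% of all windows held at least 1. The outer Hic1 start had 2 matches to CCAAT, found in 33.9% of all windows. The nuclear receptor half-site AGGTCA, the letters that retinoic acid receptors bind in pairs, had 1 match, which lay 193 to 188 bases before the start of Cpm, and 14% of all windows held it. No match was found in the 4 windows for the paired GAAA motif of IRF sites, TGANTCA (its own reverse complement), GAGGAAGT or TATAAA, which 2.98%, 6.75%, 2.44% and 12.4% of windows held. No 2 matches overlapped.

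The libraries held between 220.9 M and 356.1 M estimated counts. Markers of cDC1 were present in every library, with Xcr1, their chemokine receptor, between 77.4 and 163.5 TPM (a transcript level scaled for gene length and library size) and the 10 cDC1 markers together between 1329 and 1833 TPM. Itgam, which encodes the excluded CD11b, stayed between 0.363 and 1.3 TPM. Of all genes tested, 7.32% were called in duodenum against liver (3.95% higher and 3.37% lower in duodenum) and 7.7% in duodenum against pancreas (3.94% higher and 3.76% lower). With library totals in place of TMM scaling, duodenum was the higher side in 36.5% of the calls against liver, and in 54% with TMM. Of 14 marker lists for other cells, 4 had summed levels that were higher in every duodenum library than in every other library. The plasma cell list, with 8 genes, summed to 9665 to 14648 TPM in duodenum, 95.6 to 1432 TPM in liver and 100.5 to 1697 TPM in pancreas, and the high values outside duodenum belonged to liver 2, pancreas 3 and pancreas 4. The B cell list summed to 9.78 to 16.2 TPM in duodenum, 3.05 to 4.41 TPM in liver and 3.4 to 8.26 TPM in pancreas. Among its 5 genes, 1 was called higher in duodenum than in liver and 0 than in pancreas (median log2 differences 0.78 and 0.93). The endothelial list summed to 55.1 to 76.1 TPM in duodenum, 29.2 to 36 TPM in liver and 35 to 44.1 TPM in pancreas. Among its 7 genes, 1 was called higher and 1 lower in duodenum than in liver (median log2 difference -0.32). Against pancreas, 1 was called higher and 0 lower (median 0.09), so the sum does not stand for the whole list. The list for cDC2, the other conventional DC type, summed to 25.8 to 29.7 TPM in duodenum, 3.25 to 6.91 TPM in liver and 5.06 to 9.64 TPM in pancreas, with 4 of its 6 genes higher in duodenum in both comparisons (2.45% of all genes were). Stroma, where Hic1 is a known marker, did not separate the tissues: its 10 genes summed to 36.9 to 53.9 TPM in duodenum, 40.6 to 48.3 TPM in liver and 36.1 to 63.8 TPM in pancreas, with the collagen gene Col1a1 between 0.389 and 1.07 TPM. The macrophage list, 12 genes, was highest in pancreas, at 391 to 551.1 TPM in duodenum, 505.3 to 656.9 TPM in liver and 882.4 to 1015 TPM in pancreas. None of the genes of the 4 lists was at 0 in any library. The part of these cells in the levels of the 3 genes was not tested.

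Hic1 was the most abundant of the 3 genes in duodenum. Its level was 112.3, 77, 100.5 and 106.9 TPM in duodenum libraries 1 to 4, 6.44, 5.27, 10 and 7.76 TPM in liver libraries 1 to 4, and 0.844, 0.189, 2.71 and 1.37 TPM in pancreas libraries 1 to 4. The tissues did not overlap, with every duodenum library above every liver library and every liver library above every pancreas library. The lowest duodenum library stood 7.69-fold above the highest library of the other tissues. Duodenum averaged 99.2 ± 15.6 TPM, liver 7.37 ± 2.03 TPM and pancreas 1.28 ± 1.07 TPM (SD, n = 4 each). By level Hic1 ranked 1058 of the 44624 genes tested in duodenum, 7808 in liver and 15298 in pancreas. The spread was small in duodenum, where the highest library was 1.46 times the lowest, and wide in pancreas, where it was 14.4 times the lowest. Pancreas 2 set that range with 137 estimated counts, and the high libraries pancreas 3 and pancreas 4 were also those with the high plasma cell sums of their tissue. Liver 2, the liver library with the highest plasma cell sum, had the lowest Hic1 level of its tissue. For Dapk2, liver 2 was the highest liver library (8.25 TPM), and pancreas 3 and pancreas 4 were the lowest pancreas libraries (0.86 and 0.876 TPM). The part of plasma cells in these levels was not tested.

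Dapk2 followed the same order of tissues with less spread. It was at 61.6, 70.5, 76.8 and 68 TPM in duodenum libraries 1 to 4, at 5.18, 8.25, 6.49 and 4.33 TPM in liver libraries 1 to 4, and at 1.36, 0.908, 0.86 and 0.876 TPM in pancreas libraries 1 to 4. Again no 2 tissues overlapped, and the lowest duodenum library was 7.47-fold above the highest liver library. Means were 69.2 ± 6.31 TPM in duodenum, 6.06 ± 1.7 TPM in liver and 1 ± 0.24 TPM in pancreas (SD, n = 4 each). Dapk2 had the lowest relative spread of the 3 genes in duodenum, an SD of 9.12% of the mean, against 15.7% for Hic1 and 23.8% for Cpm.

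Cpm was a low-abundance transcript with another order outside duodenum. Its level was 9.09, 6.38, 5.85 and 5.61 TPM in duodenum libraries 1 to 4, 0.283, 0.413, 0.347 and 0.425 TPM in liver libraries 1 to 4, and 0.663, 0.536, 0.385 and 0.498 TPM in pancreas libraries 1 to 4. Duodenum stood clear of both other tissues, by 8.46-fold between its lowest library and the highest of the others, while liver and pancreas overlapped. Means were 6.73 ± 1.6 TPM in duodenum, 0.367 ± 0.0654 TPM in liver and 0.521 ± 0.114 TPM in pancreas (SD, n = 4 each). The liver and pancreas values rested on 148 to 349 estimated counts per library.

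**Figure D1:**
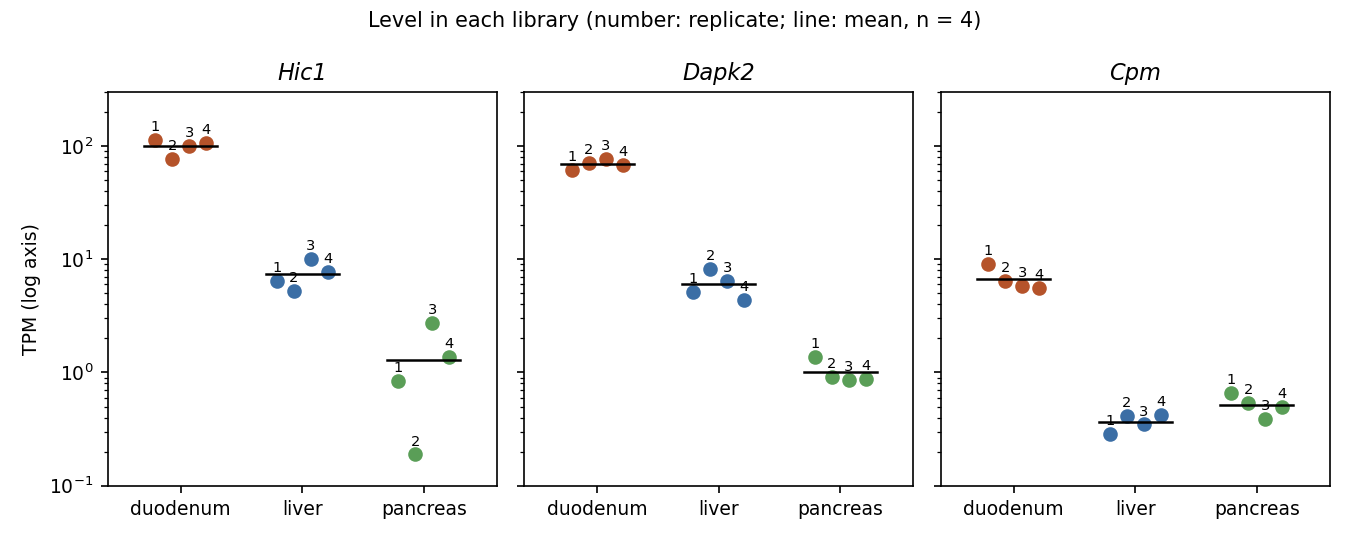
Level of Hic1, Dapk2 and Cpm in TPM (log axis) in each of the 4 duodenum, 4 liver and 4 pancreas libraries; points are libraries with their replicate number and lines are means. For Hic1 and Dapk2 the 3 tissues form 3 separate steps, while for Cpm liver and pancreas share the lower step.

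The differences between duodenum and the other tissues are what the genes were chosen for, so they are described and not tested. In a model of the counts of all genes, duodenum minus liver was 3.91 ± 0.60 for Hic1, 3.67 ± 0.21 for Dapk2 and 4.36 ± 0.24 for Cpm on the log2 scale (SE). Duodenum minus pancreas was 6.30 ± 0.68 for Hic1, 6.20 ± 0.24 for Dapk2 and 3.78 ± 0.23 for Cpm. As ratios of mean TPM, duodenum over liver was 13.5 for Hic1, 11.4 for Dapk2 and 18.3 for Cpm, and duodenum over pancreas was 77.5, 69.2 and 12.9 for the same genes. Both comparisons share the duodenum libraries. By the smaller of the 2 log2 differences, Hic1, Cpm and Dapk2 ranked 91, 98 and 103 among the 44624 genes, so other genes were more unequal. All 4 duodenum libraries exceeded the other 8 in TPM for 2.99% of the genes tested, and 2.45% were called higher in duodenum against both tissues.

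Liver against pancreas is not the comparison that the genes were chosen for, though they were chosen with earlier results of these data known. Dapk2 was higher in liver, at 6.06 ± 1.7 TPM against 1 ± 0.24 TPM in pancreas (SD, n = 4 each). The edgeR quasi-likelihood test over all genes put liver minus pancreas at 2.53 ± 0.20 on the log2 scale (SE, adjusted p = 7.55e-06). Every liver library was above every pancreas library, which held for 4.76% of all genes tested, and 0.426% of genes were called higher in liver than in pancreas, out of 1.11% called in either direction. Hic1 had the same direction and a similar size, 7.37 ± 2.03 TPM in liver and 1.28 ± 1.07 TPM in pancreas, but with a log2 difference of 2.40 ± 0.57 it did not pass the test with all libraries (adjusted p = 0.0697). Its call depended on the setting: it passed in 8 of 23 alternatives, with adjusted p between 0.000298 and 0.215 over all 23. With all libraries kept Hic1 passed in DESeq2 (log2 difference 2.39, adjusted p = 0.000298) and in edgeR after a stricter filter on low counts (2.44, adjusted p = 0.026). It passed in edgeR with the replicate number as a block (2.75, adjusted p = 0.0144). It passed too in limma on log2(TPM + 1) (1.97, adjusted p = 0.00102) and on log2(TPM + 0.1) (2.82, adjusted p = 0.0053). It also passed without pancreas 2 (2.04, adjusted p = 0.0281), without pancreas 3 (3.17, adjusted p = 0.01) and without liver 2, pancreas 3 and pancreas 4 together (4.00, adjusted p = 0.00772). Cpm was at 0.367 ± 0.0654 TPM in liver and 0.521 ± 0.114 TPM in pancreas, with a log2 difference of -0.58 ± 0.21 that did not pass (adjusted p = 0.333), and the liver and pancreas libraries overlapped, while for 2.57% of all genes every liver library was below every pancreas library. Transcripts of the tissue of origin moved with this comparison. The acinar list, digestive enzyme genes of the exocrine pancreas, summed to 3.35 to 5.23 TPM in liver and 1297 to 7581 TPM in pancreas, with 10 of 10 genes lower in liver. In the hepatocyte list, 6 of 7 genes were called higher in liver. The remaining gene, Trf, which encodes transferrin, was lower in liver and made up most of the list's sum, 90.8 to 146 TPM in liver and 166.8 to 205.9 TPM in pancreas. The part of these transcripts in the liver and pancreas levels of Hic1, Dapk2 and Cpm was not tested.

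Ratios within a library, which no scaling between libraries can change, set the 3 genes against each other. This test was added after the levels were seen. Those levels already kept both ratios to Cpm from overlapping between liver and pancreas, so their p-values add no separate evidence. Each of the 3 ratios also follows from the others. The log2 ratio of Dapk2 to Cpm was 4.02 ± 0.45 in liver and 0.94 ± 0.19 in pancreas (SD, n = 4 each), without overlap. That of Hic1 to Cpm was 4.31 ± 0.50 in liver and 0.78 ± 1.83 in pancreas, also without overlap. Both differences, 3.08 and 3.53, had p = 0.0286 in an exact two-sided permutation test over 4 liver and 4 pancreas libraries, the smallest p this design allows, and 0.0429 when adjusted over the 3 ratios. The log2 ratio of Hic1 to Dapk2 was 0.28 ± 0.66 in liver and -0.16 ± 1.70 in pancreas, a difference of 0.45 with exact permutation p = 0.629. In duodenum the 3 ratios were 3.39 ± 0.43 for Dapk2 to Cpm, 3.89 ± 0.33 for Hic1 to Cpm and 0.51 ± 0.32 for Hic1 to Dapk2.

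**Figure D2:**
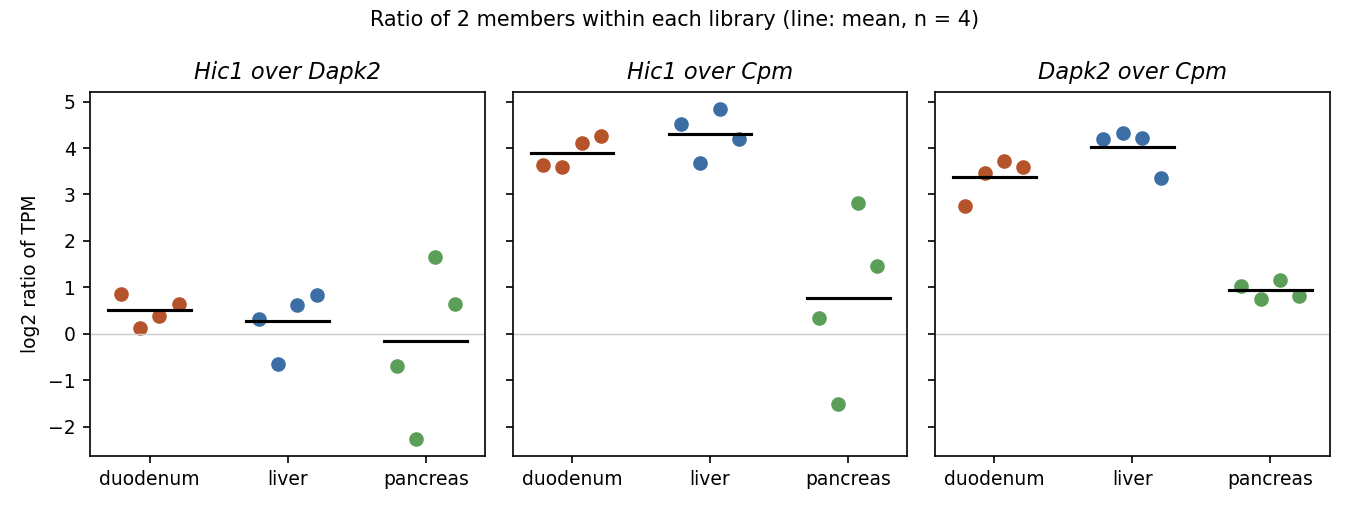
Log2 ratio of the TPM of 2 genes within each library, for the 4 duodenum, 4 liver and 4 pancreas libraries; points are libraries and lines are means. Dapk2 over Cpm and Hic1 over Cpm are lower in all 4 pancreas libraries than in all 4 liver libraries, while Hic1 over Dapk2 overlaps.

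The closest relatives of Hic1 and its partners did not follow it. Hic2, the paralogous repressor, was at 0.7 ± 0.222 TPM in duodenum, 0.827 ± 0.153 TPM in liver and 0.804 ± 0.261 TPM in pancreas, with log2 differences of -0.10 ± 0.27 for duodenum minus liver and -0.12 ± 0.27 for duodenum minus pancreas (adjusted p = 0.911 and 0.883). Of 6 genes for Hic2 and HIC1 corepressors, 1 was called, Ctbp2, and it was lower in duodenum. Over all genes tested, 3.37% were called lower in duodenum than in liver and 3.76% than in pancreas. Ctbp2, a corepressor that binds HIC1, was at 10.9 ± 2.18 TPM in duodenum, 21 ± 2.96 TPM in liver and 21.8 ± 1.51 TPM in pancreas, with log2 differences of -0.78 ± 0.18 against liver (adjusted p = 0.0172) and -0.92 ± 0.18 against pancreas (adjusted p = 0.0058). The call against liver ended without liver 1, liver 3 or duodenum 3 (adjusted p from 0.0581 to 0.0845). Ctbp1 was at 16.2 ± 3.65 TPM in duodenum, 20.2 ± 2.4 TPM in liver and 15.2 ± 4.62 TPM in pancreas and passed no test. Arid1a, a subunit of the SWI/SNF remodeller, was at 23.4 ± 4.22 TPM in duodenum, 37.9 ± 3.66 TPM in liver and 33.6 ± 4.26 TPM in pancreas, and its log2 differences of -0.53 ± 0.17 and -0.45 ± 0.17 did not pass (adjusted p = 0.0735 and 0.133). Mta1 and Sirt1 averaged between 3.2 and 8.26 TPM in each tissue. The list's median log2 difference was -0.12 in both comparisons, beside -0.10 and -0.09 over all genes tested.

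Genes that HIC1 is reported to repress in human cells were also examined. Epha2, an ephrin receptor, was at 5.84 ± 1.24 TPM in duodenum, 3.59 ± 0.192 TPM in liver and 3.09 ± 0.469 TPM in pancreas, with log2 differences of 0.87 ± 0.19 (adjusted p = 0.0101) and 1.00 ± 0.19 (adjusted p = 0.00361). Sirt1, also a reported target, differed by -0.02 ± 0.14 against liver and -0.12 ± 0.14 against pancreas and did not pass. Ackr3 and Atoh1 averaged at most 0.391 TPM in each tissue.

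In the DAP kinase family the tissue pattern of Dapk2 was not shared by Dapk1 and Dapk3. Dapk1 was at 13.9 ± 2.62 TPM in duodenum, 15.5 ± 1.99 TPM in liver and 10.3 ± 1.24 TPM in pancreas, and Dapk3 at 17.6 ± 7.46 TPM in duodenum, 18.7 ± 3.51 TPM in liver and 15.7 ± 4.6 TPM in pancreas. Neither passed a test (lowest adjusted p = 0.0721, Dapk1 in duodenum against pancreas). In TPM, which is scaled for length, Dapk2 was thus the highest of these 3 kinases in duodenum and the lowest in liver and in pancreas. Stk17b, a related kinase that lacks the calmodulin domain and acts in T cells in mice, was at 20.4 ± 5.65 TPM in duodenum, 7.09 ± 0.933 TPM in liver and 12.6 ± 1.05 TPM in pancreas. It was higher in duodenum than in liver (1.68 ± 0.18, adjusted p = 5.65e-05) and than in pancreas (0.75 ± 0.18, adjusted p = 0.0179, lost without duodenum 1 at 0.0689). Between liver and pancreas Stk17b went the other way from Dapk2, at -0.92 ± 0.18 (adjusted p = 0.0208), a call that ended without any of 5 single libraries (liver 1, liver 4, pancreas 2, pancreas 3 or pancreas 4), with adjusted p from 0.0535 to 0.0737. Of the 9 genes of this list, 3 were higher in duodenum than in liver and 3 than in pancreas, Stk17b, Calm3 and Myl12a in both. Over all genes tested, 3.95% were called higher in duodenum than in liver, 3.94% than in pancreas and 2.45% in both. The list's median log2 differences were 0.22 and 0.53.

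Of the calmodulin genes, whose product activates DAPK2, Calm2 was at 169 ± 23 TPM in duodenum, 169 ± 12.2 TPM in liver and 180 ± 20.5 TPM in pancreas and passed no test. Calm3 was at 88.2 ± 3.9 TPM in duodenum, 56.8 ± 2.7 TPM in liver and 59.4 ± 10.8 TPM in pancreas, with log2 differences of 0.79 ± 0.15 (adjusted p = 0.00361) and 0.64 ± 0.15 (adjusted p = 0.0137). Myl12a, a regulatory myosin light chain of the kind that DAP kinases phosphorylate, was at 527 ± 68.6 TPM in duodenum, 352 ± 17.8 TPM in liver and 329 ± 31.3 TPM in pancreas, with log2 differences of 0.75 ± 0.15 in both comparisons (adjusted p = 0.00654 and 0.0058). Its close copy Myl12b was at 423 ± 44 TPM in duodenum, 560 ± 24.5 TPM in liver and 432 ± 26.2 TPM in pancreas and passed no test. The copies are near-identical, so the split of reads between Myl12a and Myl12b is uncertain.

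In duodenum Cpm was more abundant in TPM than the other 7 carboxypeptidases of its group. The nearest was Cpd, a membrane enzyme of the secretory pathway, at 2.34 ± 0.315 TPM in duodenum, 1.46 ± 0.269 TPM in liver and 1.31 ± 0.663 TPM in pancreas, so that in liver and pancreas Cpd was more abundant than Cpm. Cpd was higher in duodenum than in pancreas (0.95 ± 0.26, adjusted p = 0.0355), a call that ended without any of 6 single libraries (duodenum 1, 3 or 4, or pancreas 2, 3 or 4; adjusted p from 0.0651 to 0.103). Against liver it did not pass (0.85 ± 0.26, adjusted p = 0.0622). The other 6, among them Cpe, which processes prohormones, and Cpn1, the plasma enzyme that inactivates anaphylatoxins, averaged from 0.111 to 0.64 TPM and passed no test. The list's median log2 difference was 0.39 against liver and -0.39 against pancreas.

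Most receptors for peptides that carboxypeptidase M can trim were at low levels. C3ar1, the receptor of the anaphylatoxin C3a, was at 0.295 ± 0.0879 TPM in duodenum, 0.664 ± 0.08 TPM in liver and 0.65 ± 0.12 TPM in pancreas, and was lower in duodenum by log2 differences of -1.01 ± 0.24 (adjusted p = 0.0173) and -1.06 ± 0.24 (adjusted p = 0.012). The call against liver ended without liver 1, liver 3, duodenum 1 or duodenum 3 (adjusted p from 0.0507 to 0.0639). Egfr was at 0.246 ± 0.112 TPM in duodenum, 0.701 ± 0.418 TPM in liver and 0.872 ± 0.542 TPM in pancreas, and was lower in duodenum than in pancreas (-1.81 ± 0.52, adjusted p = 0.0486). Omitting any 1 of 8 libraries ended that call (liver 2 or 3, duodenum 1, 3 or 4, or pancreas 1, 3 or 4; adjusted p from 0.0546 to 0.171). Of the 9 genes for such peptides and their receptors, 1 was lower in duodenum than in liver and 2 than in pancreas. The shares called lower in duodenum over all genes tested were 3.37% and 3.76%. The list's median log2 differences were -0.86 and -0.47. Cxcr4, at 4.47 ± 0.447 TPM in duodenum, 3.15 ± 2.4 TPM in liver and 7.72 ± 1.41 TPM in pancreas, was the most abundant and passed no test.

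**Figure D3:**
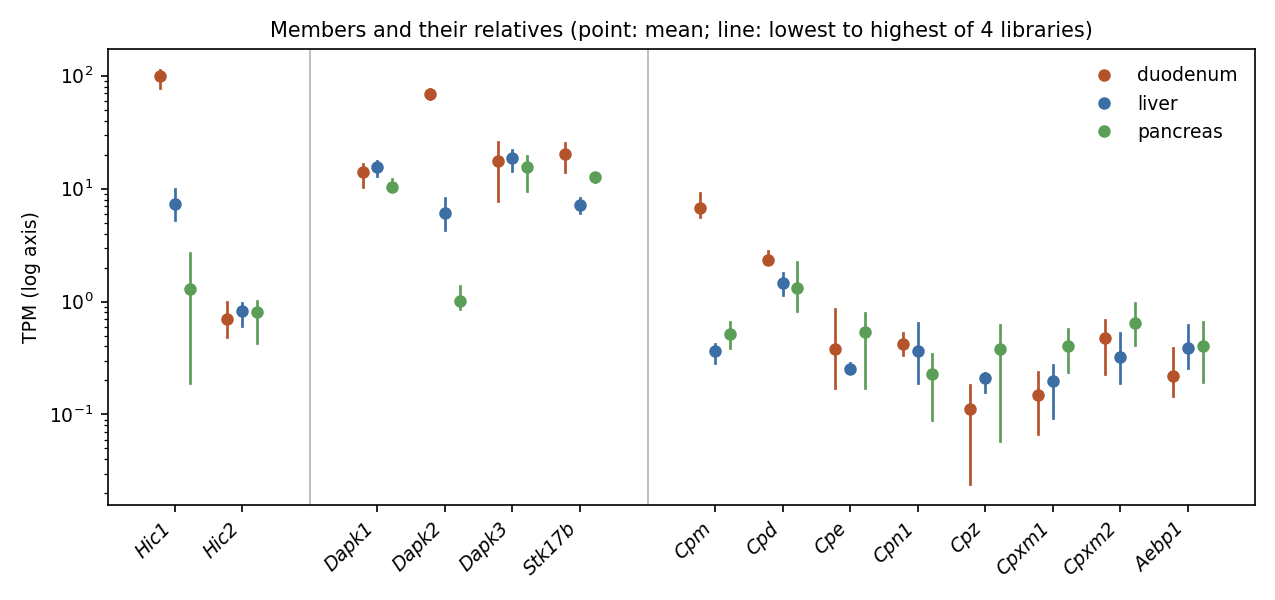
Levels in TPM (log axis) of the 3 genes and their relatives in duodenum, liver and pancreas; points are means of 4 libraries and lines run from the lowest to the highest library. Hic1, Dapk2 and Cpm are each the highest of their group in duodenum, and Dapk2 is below Dapk1 and Dapk3 in liver and pancreas.

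In the retinoic acid list of 20 genes, 4 were called higher and 1 lower in duodenum than in liver. Against pancreas, 3 were higher and 2 lower in duodenum. Over all genes tested, 3.95% were called higher and 3.37% lower in duodenum than in liver, and 3.94% higher and 3.76% lower than in pancreas. The list's median log2 differences were -0.06 and -0.08. Aldh1a2, which makes retinoic acid, was at 33.9 ± 5.23 TPM in duodenum, 3.69 ± 1.75 TPM in liver and 5.41 ± 2.12 TPM in pancreas, with log2 differences of 3.38 ± 0.35 and 2.71 ± 0.34 (adjusted p = 3.41e-05 and 0.000138). Cyp26b1, which breaks it down, was at 20.5 ± 6.55, 0.425 ± 0.321 and 0.316 ± 0.168 TPM in duodenum, liver and pancreas, with log2 differences of 5.70 ± 0.58 and 6.04 ± 0.59 (adjusted p = 2.9e-05 and 1.27e-05). Rarb, a receptor that is itself induced by retinoic acid, was at 3.53 ± 0.863 TPM in duodenum, 0.631 ± 0.101 TPM in liver and 1.46 ± 0.631 TPM in pancreas, with log2 differences of 2.63 ± 0.31 and 1.34 ± 0.29 (adjusted p = 9.96e-05 and 0.0104). Liver minus pancreas, the log2 difference was -0.66 ± 0.32 for Aldh1a2, 0.34 ± 0.48 for Cyp26b1 and -1.29 ± 0.30 for Rarb (adjusted p = 0.586, 0.963 and 0.056). Rara, a further receptor, was higher in duodenum than in liver (1.22 ± 0.22, adjusted p = 0.00338). Dhrs3, a retinaldehyde reductase, was at 76.7 ± 10.9 TPM in duodenum, 79.9 ± 8.3 TPM in liver and 147 ± 28.5 TPM in pancreas, and it was lower than in pancreas in both duodenum (-0.88 ± 0.18, adjusted p = 0.00715) and liver (-0.99 ± 0.18, adjusted p = 0.0137). Rxra, the partner receptor, was lower in duodenum by -0.69 ± 0.19 and -0.66 ± 0.19 (adjusted p = 0.0395 and 0.0475), and its calls ended without 11 and 12 of the 12 single libraries.

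The protein-coding neighbours of the 3 genes, 2 on each side in the RefSeq order, changed less than the members, which were chosen for a large difference. Of the 12 neighbours, 1 was called higher in duodenum than in liver, and 4 were called higher and 1 lower in duodenum than in pancreas, over log2 differences from -0.07 to 1.47 and from -1.06 to 1.41. Of all genes tested, 3.95% were called higher in duodenum than in liver, and 3.94% higher and 3.76% lower than in pancreas. These shares count all 44624 genes tested, of which 15847 averaged at least 1 TPM in duodenum, as did every neighbour but Fbxl22. Shares among genes of similar level were not computed. The 1 called in both was Smg6, a factor of nonsense-mediated decay next to Hic1, at 10.2 ± 1.58 TPM in duodenum, 4.12 ± 0.443 TPM in liver and 4.02 ± 0.0971 TPM in pancreas, with log2 differences of 1.47 ± 0.15 and 1.41 ± 0.15 (adjusted p = 3.24e-05 and 2.9e-05). Smg6 and Hic1 overlap on opposite strands in RefSeq, and the strandedness of the libraries is not given in the sources used here, so reads from the shared stretch cannot be told apart. On the other side of Hic1, Ovca2 was higher in duodenum than in pancreas (0.78 ± 0.15, adjusted p = 0.00477). Around Cpm, Mdm2, the p53 regulator, and Slc35e3 were higher in duodenum than in pancreas (0.81 ± 0.21 and 0.75 ± 0.18, adjusted p = 0.0256 and 0.0168), and Lyz1, a lysozyme gene, was lower (-1.06 ± 0.26, adjusted p = 0.0192). Single libraries ended 2 of these calls, for Mdm2 without any of 5 (duodenum 1, 3 or 4, or pancreas 1 or 2; adjusted p from 0.0552 to 0.0911) and for Lyz1 without duodenum 2, duodenum 4 or pancreas 2 (from 0.0547 to 0.0824). The 4 neighbours of Dapk2 (Snx1, Ciao2a, Herc1 and Fbxl22) passed no test, with log2 differences from 0.08 to 0.60 in the duodenum comparisons.

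**Figure D4:**
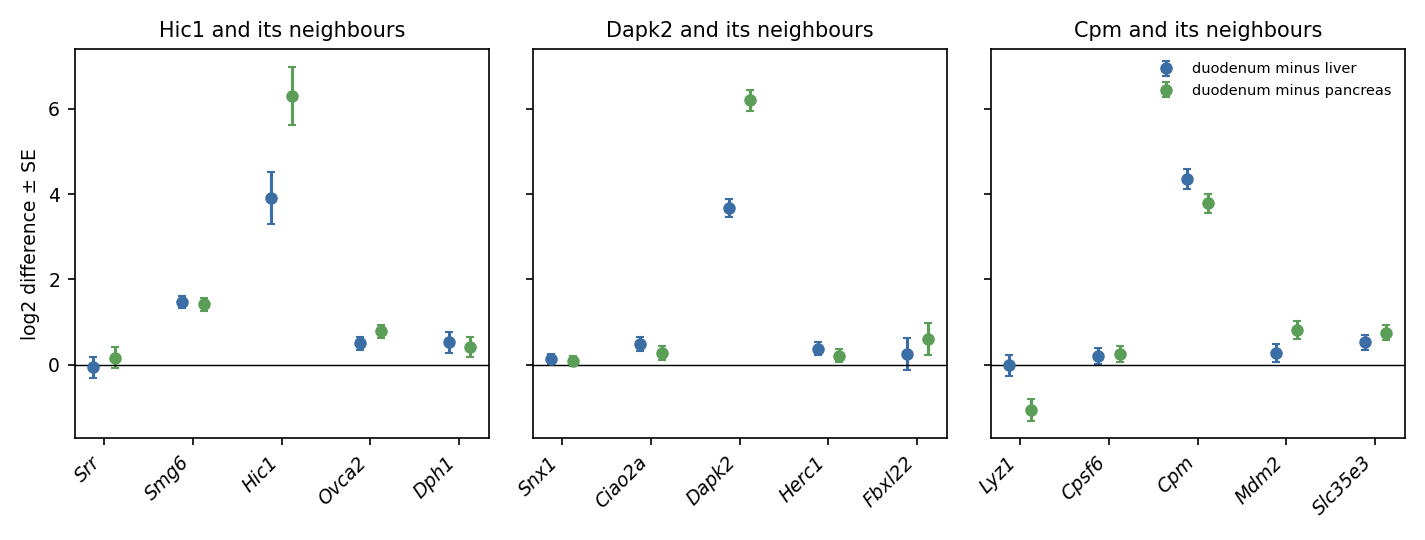
Log2 difference of duodenum minus liver and of duodenum minus pancreas for each of the 3 genes and its 2 protein-coding neighbours on either side, in chromosome order; points are estimates from the count model and bars are 1 SE. The members, which were chosen for this difference, lie between 3.67 and 6.30, while the neighbours lie between -1.06 and 1.47.

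The genes whose profile over the 12 libraries was nearest to each member differed between them. Nearness was the root-mean-square difference of log2 counts scaled to library size, each profile centred on its mean, over 20732 named genes. The nearest to Hic1 were Ifitm6 (0.86), Apol7c (0.87), Camkk1 (0.87), Apol10b (0.90) and Dapk2 (0.96). The nearest to Dapk2 were Apol10b (0.63), Camkk1 (0.73), the long non-coding RNA Bvht (0.79), Pilra (0.85) and Ifitm6 (0.87). So 3 genes, Ifitm6, Camkk1 and Apol10b, were near both. Camkk1, which encodes a calmodulin-dependent kinase kinase, was at 10.9, 11.3, 11 and 14.9 TPM in duodenum libraries 1 to 4, 1.49, 1.72, 1.25 and 1.63 TPM in liver libraries 1 to 4, and 0.296, 0.136, 0.464 and 0.683 TPM in pancreas libraries 1 to 4, the same 3 steps as Dapk2. Apol7c, of the apolipoprotein L family, averaged 1202 ± 133 TPM in duodenum, 158 ± 40.1 TPM in liver and 12.6 ± 10.7 TPM in pancreas.

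For Cpm the nearest were Fos (0.44), Egr1 (0.52), Ets2 (0.56), Tnfrsf17 (0.57) and Ier2 (0.60). Fos, Egr1 and Ier2 are immediate-early genes, which respond within minutes to stimulation and to the handling of cells. Fos was at 700.1, 531.4, 522.8 and 448.5 TPM in duodenum libraries 1 to 4, 34.2, 36.7, 37.2 and 32.6 TPM in liver libraries 1 to 4, and 98.4, 44.7, 68.8 and 90.1 TPM in pancreas libraries 1 to 4. In TPM, duodenum 1 was the highest and duodenum 4 the lowest duodenum library for both Fos and Cpm. On the centred log2 scaled counts, Cpm was nearly level in duodenum 2, 3 and 4 (2.53, 2.54 and 2.53). Pancreas lay above liver on average for both genes, but in TPM liver and pancreas overlapped for Cpm and not for Fos. Liver 4 was the highest liver library for Cpm and the lowest for Fos. The lowest pancreas library was pancreas 3 for Cpm and pancreas 2 for Fos. Tnfrsf17, a receptor of plasma cells and 1 of the 8 genes of that marker list, averaged 3.17 ± 0.302 TPM in duodenum, 0.109 ± 0.0617 TPM in liver and 0.132 ± 0.0501 TPM in pancreas. The distance between Cpm and the other members was larger, 1.36 to Dapk2 and 1.84 to Hic1. These distances describe profiles that share the same 12 libraries, and the part of cell handling or of plasma cells in the level of Cpm was not tested.

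**Figure D5:**
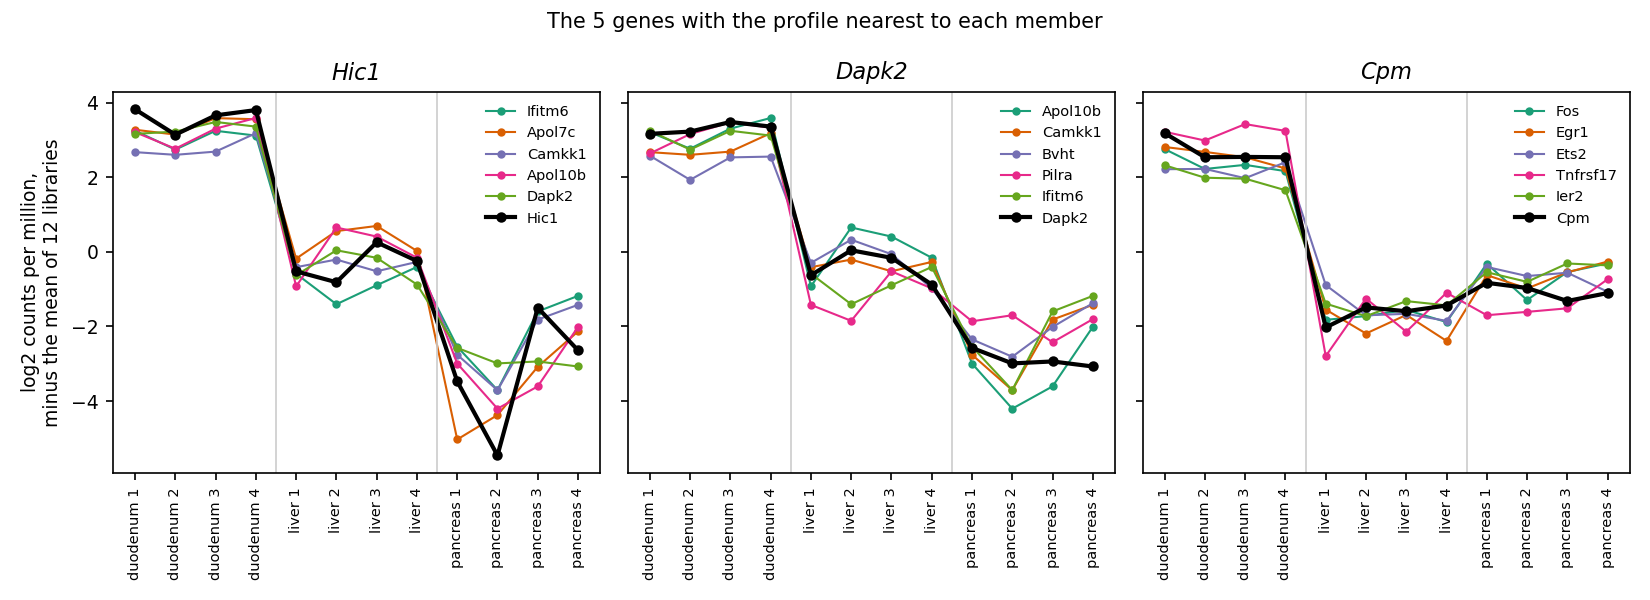
Log2 counts scaled to library size (CPM), minus the mean of the 12 libraries, of each of the 3 genes (black) and its 5 nearest genes (colours) in the 4 duodenum, 4 liver and 4 pancreas libraries. On average the genes near Hic1 and Dapk2 step down from duodenum over liver to pancreas, while those near Cpm are low in both liver and pancreas. Single libraries of liver and pancreas overlap for Ifitm6 and Pilra.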

How the data were processed

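RNA of migratory DCs from duodenum, liver and pancreas was measured by bulk sequencing, 4 libraries each. The authors deposited estimated counts and TPM per gene, made with kallisto (no version given) on GRCm39, per the submitters' processing notes. None of the sources used here gives the strandedness, the annotation release or how transcripts were summed. In all 12632 genes above 1 TPM in every library the deposited count divided by TPM was the product of a gene factor and a library factor, the form of counts rebuilt from TPM. Totals were 273 M ± 36.6 M (SD, n = 12).

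The deposited estimated counts were rounded and fitted in edgeR 4.0.16, run under R 4.3.3 (filterByExpr with minimum count 10, leaving 44624 genes, TMM, robust quasi-likelihood fit over all 12 libraries, Benjamini-Hochberg adjusted p under 0.05). Levels are the authors' deposited TPM. DESeq2 1.42.0 and limma 3.58.1 served as alternatives. The fit was tested on counts simulated with its own model and spread, which cannot show how it behaves on counts rebuilt from TPM. The members and lists were chosen with earlier results of these data known. Genes named in the text were the members, genes of their own lists that were called or averaged 10 TPM or more in a tissue, Aldh1a2, Cyp26b1, Rarb and retinoic acid genes called in 1 direction against both tissues, 2 neighbours per side, the 5 nearest profiles per member, and cDC1 and sort markers. Rara and Dhrs3 (not called that way against both), Cxcr4 (below 10 TPM, not called), Col1a1 and Trf lie outside that rule and were chosen after their values were seen. Some genes of the lists are not reported here. Promoters came from RefSeq, where all 3 members matched.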

Additional observations from a re-analysis of the deposited data

Results flagged for a closer look

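Single libraries stood apart from the other 3 of their tissue in 6 of 84 groups of 4 examined, by the size of the gap to the nearest library (Dixon's test at 95%), and chance alone gives about 5% of groups. Dapk2 was at 1.36 TPM in pancreas 1, against 0.86 to 0.908 TPM in the other pancreas libraries. Cpd was at 2.8 TPM in duodenum 4, against 2.13 to 2.22 TPM. Cyp26b1 was at 0.566 TPM in pancreas 3, against 0.203 to 0.263 TPM. Lyz1 was at 47.8 TPM in pancreas 2, against 22.6 to 26.9 TPM. Srr was at 4.48 TPM in duodenum 2, against 2.1 to 2.44 TPM. Ciao2a was at 44.6 TPM in liver 2, against 54.5 to 56.2 TPM. Without pancreas 1, Dapk2 was still called higher in liver than in pancreas.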

How the results depend on the processing

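Over 23 alternatives, 12 of which left out 1 library, no direction was reversed. For Hic1 in liver against pancreas (2.40, not called) the log2 difference was called at 2.39 with DESeq2, 2.44 with a stricter filter on low counts (1 CPM in 4 libraries), 1.97 and 2.82 with limma on TPM (pseudocounts 1 and 0.1) and 4.00 without liver 2, pancreas 3 and pancreas 4. Leaving out single libraries gave 2.04 to 3.17. Dapk2 stayed called in 23 of 23 and Cpm in none (edgeR, unadjusted p = 0.0146; DESeq2 adjusted p = 0.154). In the main fit the replicate numbers were not treated as pairs. The 12 same-numbered pairs of libraries correlated at -0.04 to 0.09 and the 36 other pairs at -0.13 to 0.12. These correlations cannot show whether libraries with the same number shared mice or a batch. With the replicate block, Hic1 in liver against pancreas was called (2.75), and Cpd and Egfr in duodenum against pancreas were not.

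The described differences moved with limma at pseudocount 1 to 3.34 and 5.14 for Dapk2 (against liver and against pancreas) and 2.48 and 2.33 for Cpm, and at 0.1 to 6.00 for Dapk2 against pancreas and 3.86 and 3.45 for Cpm. Hic1 against pancreas was 7.81 without liver 2, pancreas 3 and pancreas 4, and Dapk2 against pancreas was 6.41 without duodenum 2 and pancreas 1. Genes called between duodenum and liver (3265) numbered 5051 with DESeq2, 2069 without the 3 libraries, 4913 without duodenum 2 and pancreas 1, and 2397 to 4807 without 1 library. Between duodenum and pancreas (3437) they numbered 1712 without the 3 and 2596 to 4716 without 1. Between liver and pancreas (494) they numbered 820 with library totals, 1153 with DESeq2, 931 with that filter, 971 and 932 with limma, 177 without the 3, and 343 to 749 without 1, the highest without duodenum 2. The cause was not tested.

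Library totals moved the median of all genes for duodenum minus liver to -0.25, against -0.10 with TMM, and the share of calls higher in duodenum to 36.5%, against 54% with TMM, 64.7% with DESeq2 size factors and 36.7% with limma at pseudocount 1. In liver against pancreas, liver was the higher side in 38.5% of calls with TMM, 52.2% with library totals and 57.7% with limma. Of 31 calls on other named genes, 16 held in every alternative, and 617 of 707 refits kept the call. Estimated counts of 137 (Hic1, pancreas 2) and 148 (Cpm, liver 1) limit the low levels.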
